A study of Mus musculus with 18 samples.

Results

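The clustered protocadherins were taken as every entry of the deposited counts table whose symbol begins with Pcdha, Pcdhb or Pcdhg, which gave 59 of 24062 lines. The alpha cluster held 15 of them, the beta cluster 22 and the gamma cluster 22, the last made of 12 A-type, 7 B-type and 3 C-type isoforms. Levels were compared over 6 groups of C57BL/6 mice, each with 3 poly(A)-selected RNA libraries, 18 in all. The medial ganglionic eminence (MGE, the ventral forebrain zone that makes cortical interneurons) and the cortex were taken from embryos at E13.5, and the hippocampus after birth at P45. In each tissue, wildtype (WT) animals were set beside animals labelled Chd2 het, heterozygous (Chd2+/-) for a chromatin remodeller of the CHD family and called HET here. How the mutant allele was made is not stated in the labels, which name no other allele or agent and do not say whether a library came from 1 animal, from pooled animals or from littermates. A p-value therefore measures the spread between these libraries, which may be technical in part.

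Clustered protocadherins are cell adhesion proteins with a row of cadherin repeats outside the cell and a transmembrane segment. In the alpha and gamma clusters, each isoform has its own promoter and its own large first exon, and that exon is spliced to constant exons shared by the whole cluster, whereas each beta gene is a single exon. A neuron switches on a small set of the alternate isoforms, through promoter choice that involves CTCF, cohesin and DNA methylation, while the C-type isoforms are controlled apart from them and are used by most neurons of a type. The combination is known to act as a surface identity by which a neuron recognises its own branches, and gamma isoforms are also known for their part in interneuron and spinal neuron survival.

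The 3 clusters lie in a row on chromosome 18 of mm10, on the plus strand. In the GENCODE M21 annotation the alpha genes span chr18:36930184-37187661, the beta genes chr18:37264938-37524479 and the gamma genes chr18:37661793-37841873. Every alpha and gamma gene model reaches to the shared constant exons at the end of its cluster. The sources used here do not say whether reads in the constant exons were counted. Levels per length are therefore given per kilobase of the exon that no other coding member shares, 2346 to 3028 bases for alpha, 2588 to 8695 for beta and 2499 to 3247 for gamma, and they assume that shared reads went to no isoform. The first exons of neighbouring isoforms resemble each other in sequence, so reads could be split between them. The kit does not mark the strand, so reads from overlapping antisense transcripts cannot be told apart from those of the genes.

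The libraries held 26841671 to 38802765 counts, of which the clustered protocadherins made up 0.0215 to 0.0682%. Levels below are CPM, counts scaled to library size and by the TMM method over all 18 libraries. Chd2 itself was lower in all 9 HET libraries than in every WT library of the same tissue, with log2 fold changes of −0.24 in MGE, −0.22 in cortex and −0.17 in hippocampus, none past an adjusted p of 0.05 in edgeR's quasi-likelihood test (adjusted p = 0.98, 0.578 and 0.191). Marker lists followed the tissue labels: 8 MGE genes such as Nkx2-1 and Lhx6 summed to 2678 to 3456 CPM in MGE libraries and 15.8 to 65.7 in cortex, and 8 oligodendrocyte genes summed to 6391 to 9981 CPM in hippocampus against 55.9 to 365 in embryonic tissue. Choroid plexus genes summed to 6.00 to 1565 CPM across the cortex libraries. By Xist and Y-linked transcripts, the 3 MGE WT libraries were female and the 3 MGE HET libraries male, so genotype and sex cannot be told apart in MGE. In cortex WT 1, HET 1 and HET 3 were male, and all 6 hippocampal libraries were female. HET 3 of cortex stood apart from HET 1 and 2 in cell type markers, with values given beside the results it touches.

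The gamma cluster was the most abundant by summed CPM in every group, and all 3 clusters were higher in the P45 hippocampus than in either embryonic tissue. In WT, the summed alpha level was 18.7, 21 and 21.4 CPM in MGE, 21.7, 23.6 and 27.5 in cortex and 101, 96.5 and 99.9 in hippocampus (replicates 1 to 3). The beta sum was 43.7, 45.4 and 58.4 CPM in MGE, 48.8, 53.4 and 59.3 in cortex and 132, 160.3 and 164 in hippocampus. The gamma sum was 193, 219 and 207 CPM in MGE, 186, 159.8 and 165 in cortex and 446, 455 and 448 in hippocampus. No hippocampal library overlapped an embryonic one in any cluster, while the MGE and cortex ranges overlapped for beta and did not for alpha, where MGE was lower, or for gamma, where MGE was higher. The ratio of hippocampal to cortical WT means was 4.08 for alpha, 2.82 for beta and 2.64 for gamma, and against MGE it was 4.86, 3.09 and 2.18. Within gamma the A-type isoforms stood at 2.62 times the cortical level and the B-type at 1.64 times. The 5 C-type isoforms of both clusters together stood at 3.53 times. Age and brain region change together between these groups, and in bulk tissue fewer cells of a type and less RNA per cell cannot be told apart.

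**Figure D1:**
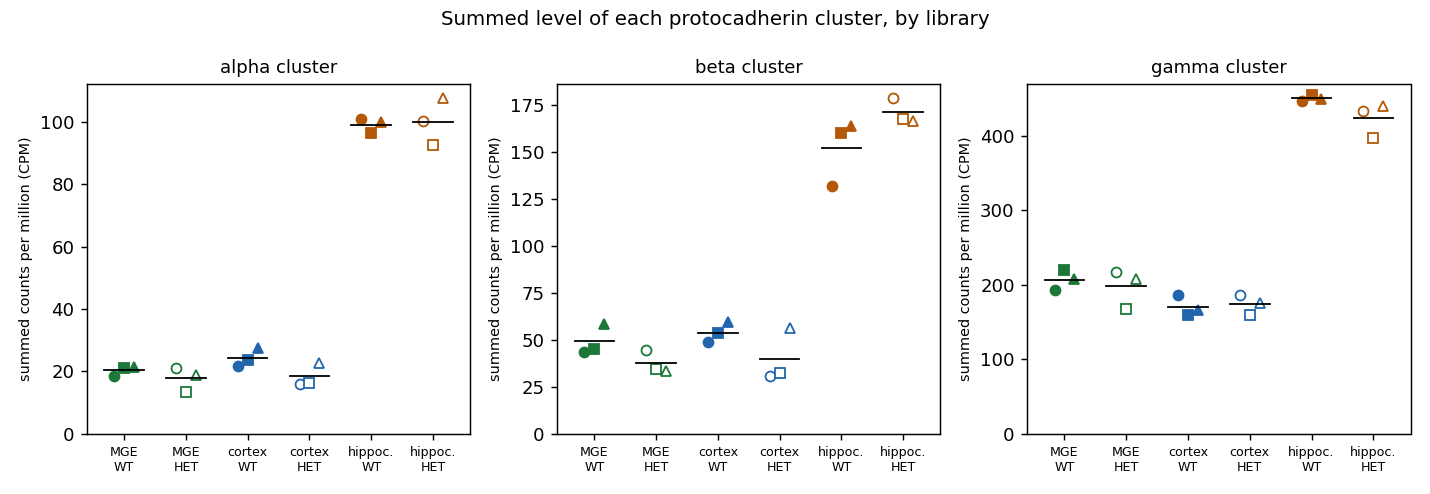
Summed level of the alpha, beta and gamma clusters in each library, in CPM on a linear axis from 0, by tissue and genotype. Filled points are WT and open points HET, circles, squares and triangles are replicates 1, 2 and 3, and the black line is the mean of 3 libraries. Hippocampal libraries sit above all embryonic libraries in each panel, and HET 1 and 2 of cortex sit below the WT libraries for alpha and beta.

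Per length, isoforms within a cluster differed widely. In WT cortex the alpha isoforms ran from 0.00401 to 1.81 CPM per kilobase (median 0.583, 14 with a gene model), the beta isoforms from 0 to 1.61 (median 0.513, 22) and the gamma isoforms from 0.364 to 24.6 (median 1.56, 22). In WT hippocampus these ranges were 0.00422 to 15.1 (median 1.64), 0.034 to 4.46 (median 1.66) and 0.937 to 45.8 (median 4.13). In WT, the highest alpha isoforms per length were Pcdhac2 and Pcdha12 in all 3 tissues. In HET MGE Pcdhac1 came second, at 0.64 CPM per kilobase beside 0.488 for Pcdha12, and it stood at 0.66 in WT MGE. That rank rested on HET 2, where Pcdhac1 held 15.8% of alpha counts and Pcdha12 5.25%. Both held 6.36% in HET 1, and in HET 3 they held 7.83 and 8.40%. Among beta genes in WT, Pcdhb7 and Pcdhb17 led in both embryonic tissues, and Pcdhb9 and Pcdhb17 in hippocampus. Among gamma isoforms in WT, Pcdhgc3 and Pcdhga11 led in the embryo, and Pcdhgc5 and Pcdhgc3 in hippocampus. In WT the order of the 22 gamma isoforms in hippocampus resembled that in cortex less than the order in MGE did, with Spearman coefficients of 0.47 and 0.86, given as descriptions over isoforms that share libraries. For beta the coefficients were 0.32 and 0.96, and for the 14 alpha isoforms 0.85 and 0.82.

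At the low end, Pcdha4 had 0 to 2 counts in every library and Pcdhb1, the first beta gene, had 0 in all 12 embryonic libraries and 2 to 10 counts in hippocampus, too few to compare. The entry Pcdha4-g had no count in any of the 18 libraries. In WT, Pcdha1 and Pcdha8 were the next lowest alpha isoforms, Pcdhb13 and Pcdhb21 the next lowest beta genes in the embryo and the hippocampus, and Pcdhga1, Pcdhgb8 and Pcdhgc5 the lowest of gamma, depending on the tissue. In HET embryonic tissue Pcdhb14 was the next lowest beta gene per length, with the longest exon of its cluster (8695 bases). By counts it stood above Pcdhb13, at 2.40 and 1.07% of beta counts in HET cortex. After the filter on low counts, 54 members were tested in the MGE and cortex genotype comparisons and 56 in hippocampus and in the comparisons of tissues.

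**Figure D2:**
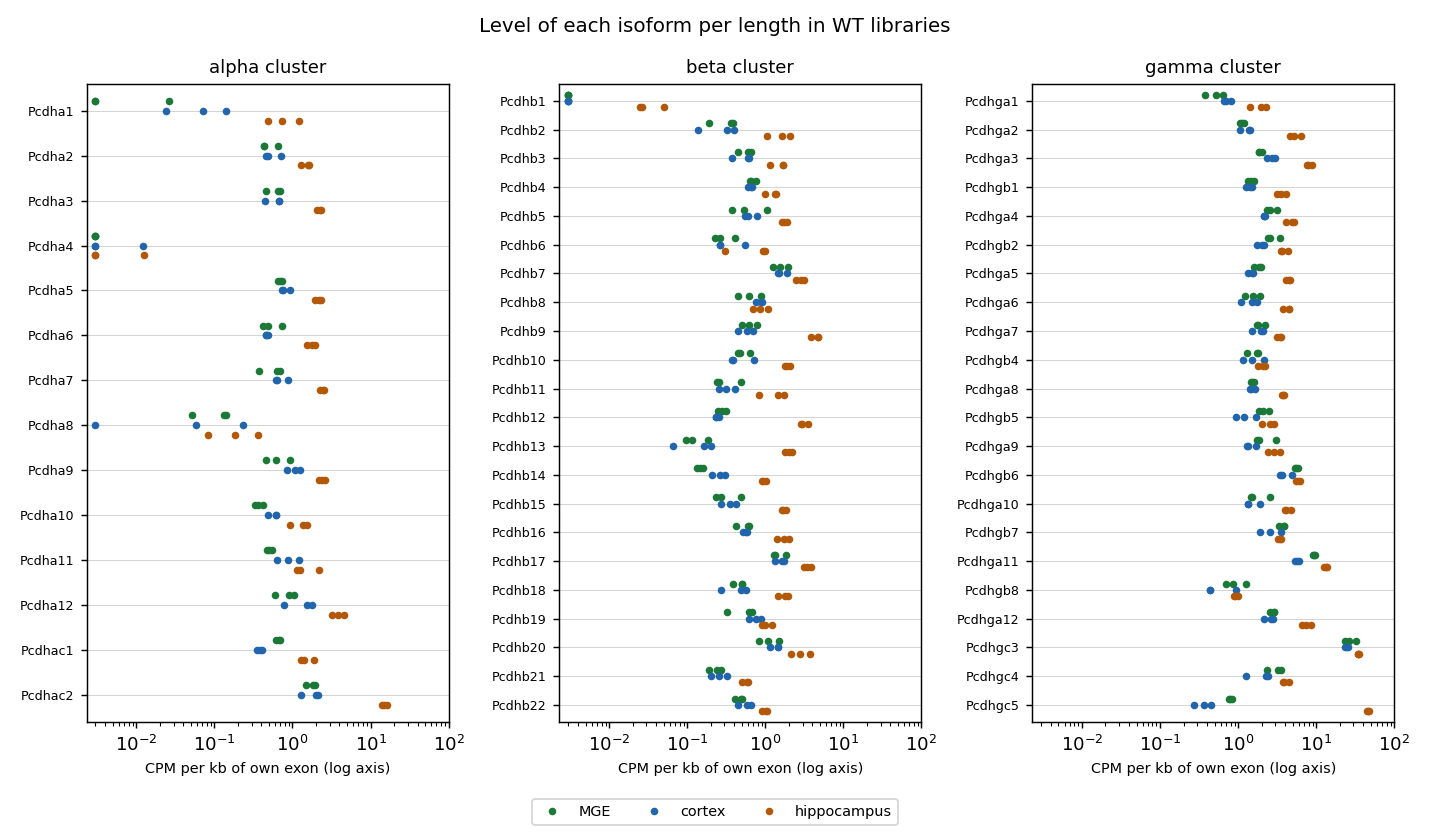
Level of each isoform in the 3 WT libraries of each tissue, in CPM per kilobase of its own exon on a log axis, in order along each cluster. Green points are MGE, blue cortex and orange hippocampus, and values at or near 0 are drawn at the left edge. Orange points lie to the right for most isoforms, by the widest gap for Pcdhgc5.

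The C-type isoforms differed among themselves in how far the hippocampus stood above the embryonic tissues. Pcdhgc5 (chr18:37819513-37841873), whose first exon is the last of the gamma cluster, was near the bottom of its cluster in the embryo, at 0.722, 0.957 and 1.18 CPM in WT cortex and 2.04, 2.00 and 2.17 in WT MGE. In WT hippocampus it stood at 124, 116 and 120.2 CPM. All 3 hippocampal libraries were far above all 6 embryonic ones, a 127-fold difference from cortex with a log2 fold change of 6.98 (adjusted p = 1.39e-14, SE 0.22) in edgeR's quasi-likelihood test over all genes. Its share of the gamma counts went from 0.567% ± 0.166 (SD, n = 3) in WT cortex to 26.7% ± 1.06 in WT hippocampus. Per kilobase it was the top gamma isoform there, at 45.8 CPM, beside 34.6 for Pcdhgc3. When lengths took in all exons of each gene model, 7627 bases for Pcdhgc5 and 5499 for Pcdhgc3, the order turned in WT. Pcdhgc3 then stood at 16.2 and Pcdhgc5 at 15.7. These lengths hold further exon bases beside the isoform's own exon and the constant exons. In HET hippocampus Pcdhgc5 stayed first by the same lengths, at 14.4 beside 14.1.

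Pcdhgc3 (chr18:37806364-37841873), an isoform known for a role in dendrite branching, was the main gamma isoform of the embryo. It held 59.4, 82.8 and 68.0 CPM in WT MGE, 66.3, 59.4 and 64.0 in WT cortex and 87.5, 90.7 and 88.3 in WT hippocampus. The hippocampal libraries lay above all WT embryonic ones, by 0.49 (adjusted p = 0.000968, SE 0.12) on the log2 scale against cortex, and its share of the cluster was 37.2% ± 1.57 in cortex and 19.7% ± 0.174 in hippocampus. Pcdhgc4 (chr18:37815079-37841873), the C-type isoform linked to the survival of cortical interneurons, held 6.78, 9.31 and 10.4 CPM in WT MGE, 7.10, 3.64 and 6.67 in cortex and 12.9, 10.9 and 11.3 in hippocampus. It was higher in hippocampus than in cortex, with a log2 fold change of 1.01 (adjusted p = 0.00159, SE 0.26), and the 3 hippocampal libraries were above all WT embryonic ones. Against MGE the difference of 0.41 (SE 0.25) did not pass (adjusted p = 0.142, from 0.0475 to 0.421 over the alternatives).

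In the alpha cluster, Pcdhac2 (chr18:37143503-37187657), the alpha isoform required for the spacing of serotonergic axons, held 4.49, 5.87 and 5.56 CPM in WT MGE, 6.02, 3.92 and 6.46 in WT cortex and 48.9, 42.6 and 45.2 in WT hippocampus. The hippocampal libraries were all above the embryonic ones, with a log2 fold change against cortex of 3.06 (adjusted p = 2.54e-11, SE 0.18). It made up 22.6% ± 5.59 of the alpha counts in WT cortex and 46.0% ± 2.22 in WT hippocampus. Pcdhac1 (chr18:37090013-37187657), the other alpha C-type isoform, was a minor one, at 1.72, 1.57 and 1.78 CPM in WT MGE, 0.903, 1.05 and 0.969 in cortex and 3.55, 4.86 and 3.33 in hippocampus. Its 3 tissues did not overlap, and it rose against cortex by 2.00 on the log2 scale (SE 0.24, adjusted p = 6.5e-07). All 5 C-type isoforms were higher in WT hippocampus than in WT cortex, but they differed in size, from 0.49 for Pcdhgc3 to 6.98 for Pcdhgc5.

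**Figure D3:**
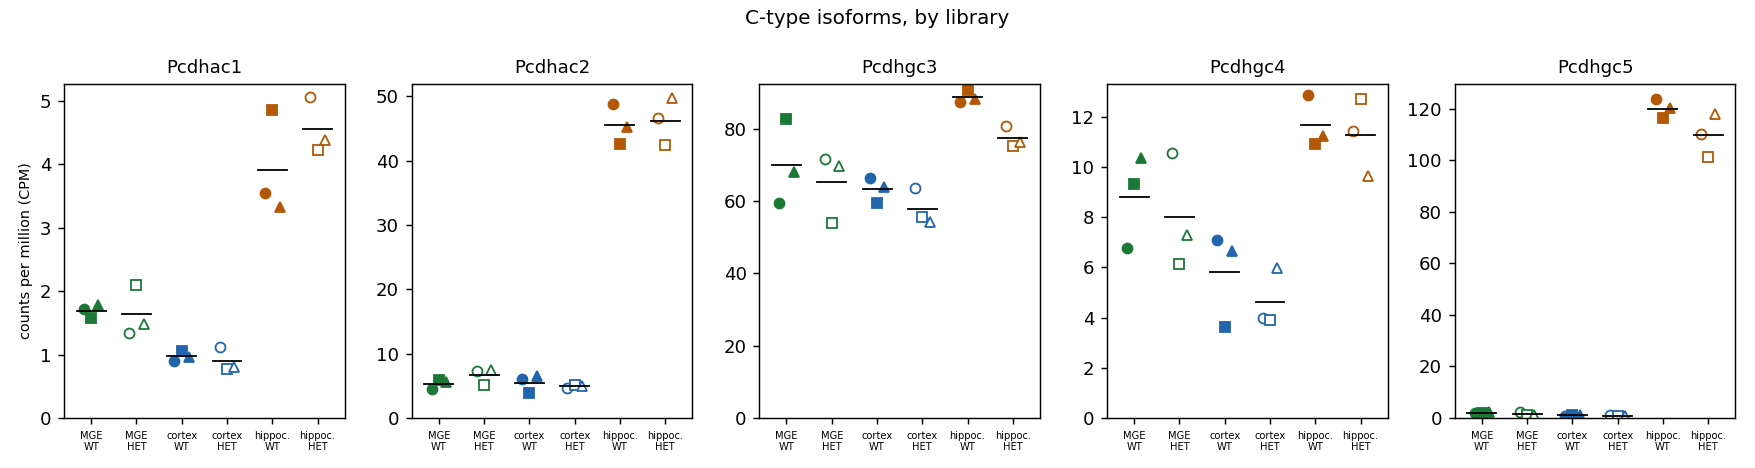
Level of each of the 5 C-type isoforms in all 18 libraries, in CPM on linear axes from 0, with a panel per isoform. Filled points are WT, open points HET, and the black line is the mean of 3 libraries. Pcdhgc5 and Pcdhac2 are low in both embryonic tissues and high in hippocampus in both genotypes, and Pcdhgc3 is high in all 3 tissues.

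Most other members were also higher in the hippocampus. Of the 56 tested, 49 were higher in WT hippocampus than in WT cortex and none was lower, where 38.6% of all genes tested were higher and 40.2% lower. The counts were 11 of 13 for alpha, 19 of 21 for beta and 19 of 22 for gamma, with median log2 fold changes of 1.51, 1.5 and 1.17 beside −0.04 over all genes. The A-type gamma isoforms passed in 12 of 12 cases (median 1.42) and the B-type in 4 of 7 (median 0.64). The 7 that did not pass were Pcdha8, Pcdha11, Pcdhb8, Pcdhb19, Pcdhgb4, Pcdhgb7 and Pcdhgb8, chosen here because they were the exceptions. Markers of several cell types moved between the same libraries: 12 of 12 progenitor genes were lower in hippocampus (median −4.97), while 8 of 8 astrocyte genes (4.32), 8 of 8 oligodendrocyte genes (6.73) and 7 of 8 adult hippocampal neuron genes (5.90) were higher. Also higher were 7 of 8 microglia and macrophage genes, and lower were 5 of 5 red blood cell genes, 6 of 8 choroid plexus genes, 7 of 8 meningeal genes and 6 of 8 endothelial genes. Of the 12 young neuron genes 2 were higher and 6 lower. The part of cell makeup in the protocadherin differences was not tested.

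Beside Pcdhgc5 and Pcdhac2, the largest differences among members with more than a few counts were those of the beta genes Pcdhb12, Pcdhb13 and Pcdhb9. Beta protocadherins have no constant region. Pcdhb12 (chr18:37435621-37438654) held 0.782, 0.702 and 0.718 CPM in WT cortex and 8.63, 9.0 and 10.6 in WT hippocampus, without overlap, with a log2 fold change of 3.67 (adjusted p = 7.94e-10, SE 0.27). Its neighbour Pcdhb13 (chr18:37442500-37446209) held 0.241, 0.606 and 0.753 CPM in cortex and 7.56, 6.73 and 8.15 in hippocampus, with a log2 fold change of 3.82 (adjusted p = 1.06e-06, SE 0.48). Pcdhb9, the leading beta gene of the hippocampus, held 2.14, 1.37 and 1.79 CPM in cortex and 11.8, 14.4 and 14.7 in hippocampus, with a log2 fold change of 2.94 (adjusted p = 3.81e-08, SE 0.29). Groups did not overlap for any of these genes, where 41.1% of all genes were higher in WT hippocampus without overlap. By contrast Pcdhb17, which led in the embryo, changed from 6.29, 7.72 and 8.22 CPM to 14.6, 16.1 and 17.7, with a log2 fold change of 1.12 (adjusted p = 8.66e-05, SE 0.21). In the alpha cluster Pcdha1, the first alpha promoter, had 2, 11 and 5 counts in WT cortex and 53, 91 and 38 in WT hippocampus, where it passed the test with a log2 fold change of 3.33 (adjusted p = 0.000194, SE 0.67) that rests on few counts in cortex.

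Against MGE, which shares the hippocampal libraries with the comparison above, 47 of 56 members were higher in WT hippocampus and none was lower, where 40.8% of all genes were higher and 39.6% lower. By cluster these were 12 of 13 alpha, 20 of 21 beta and 15 of 22 gamma members, the last with 11 of 12 A-type and 2 of 7 B-type. Pcdhgc5 differed by 5.86 (adjusted p = 2.7e-14, SE 0.20) on the log2 scale, Pcdhac2 by 3.11, Pcdhb13 by 3.93, Pcdhb12 by 3.45 and Pcdhb9 by 2.82. Pcdha1 also passed, but its WT MGE libraries held 0, 2 and 0 counts, under the floor of 3 per library, so no fold is given. Those not past the threshold were Pcdhgb4, Pcdhgb5, Pcdhgb6, Pcdhgb7, Pcdhgb8, Pcdhga9, Pcdhgc4, Pcdha8 and Pcdhb8. The B-type isoforms thus made up 5 of the 9.

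Between the embryonic tissues of the same age, few members differed. In WT, 6 of 56 were higher in MGE than in cortex and 3 were lower, where 21.4% of all genes were higher and 22.9% lower, so the share of members past the threshold was below that of all genes. Pcdhgc5 was higher in MGE, with a log2 fold change of 1.13 (adjusted p = 0.00119, SE 0.24), and its 3 MGE libraries lay above the 3 of cortex. Pcdhga11, the leading A-type isoform of the embryo, held 24.1, 24.8 and 25.5 CPM in WT MGE and 14.0, 16.0 and 14.9 in WT cortex, without overlap, with a log2 fold change of 0.72 (adjusted p = 2.63e-05, SE 0.10). Pcdhac1 was higher in MGE by 0.79 (adjusted p = 0.0154, SE 0.25). The other higher members were the B-type isoforms Pcdhgb5 (0.77), Pcdhgb2 (0.49) and Pcdhgb6 (0.46). Lower in MGE were Pcdhb14 (−0.81), Pcdhga3 (−0.48) and Pcdha1, the last on 0, 2 and 0 counts against 2, 11 and 5. Without replicate 3 of WT cortex, 4 members passed in place of 9. Pcdhgc5 and Pcdhga11 passed under every alternative, and each of the other 7 lost the threshold under at least 1, with a loss for each of the 6 libraries left out in turn. Lists of MGE identity (8 of 8 genes higher) and cortex identity (7 of 8 lower) set the same libraries apart. Meningeal genes were lower in MGE in 7 of 8 cases (median −3.45), choroid plexus genes in 5 of 8 (median −5.14) and young neuron genes in 5 of 12, and 7 of 12 progenitor genes were higher, and their part was not tested. The MGE WT libraries were all female and those of cortex were not, and the part of sex was not tested.

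The same contrasts of tissue in HET used none of the WT libraries, though all stood in the same fit. In HET, 53 of 56 members were higher in hippocampus than in cortex and none was lower (39.4% of all genes higher and 40.8% lower), and they included all 49 of the WT comparison, 100% of that list and 92.5% of the HET list. The exceptions in HET were Pcdhgb4, Pcdhgb7 and Pcdhgb8, which were also exceptions in WT. Pcdhgc5 held 0.96, 0.745 and 0.835 CPM in HET cortex and 110.4, 101 and 118 in HET hippocampus, with a log2 fold change of 7.01 (adjusted p = 1.4e-14, SE 0.22). The HET values were 4.51 for Pcdhb12, 3.83 for Pcdhb13, 3.55 for Pcdhb9 and 3.34 for Pcdhb14, and 3.34 for Pcdha1 on 2, 6 and 8 counts in cortex. Against MGE, 47 of 56 were higher in HET hippocampus and none was lower (41.2% of all genes higher and 40.1% lower), 45 of them shared with the 47 of WT (95.7% of each list). In HET all MGE libraries were male and all hippocampal libraries female, so sex and tissue cannot be told apart there. In WT the libraries of both tissues were female.

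Between HET MGE and HET cortex, 6 members were higher and 5 lower, where 19% of all genes were higher and 22% lower, and 5 of the 11 were shared with WT in the same direction (55.6% of the WT list and 45.5% of the HET list). The shared members were Pcdhgc5, Pcdhac1, Pcdhga11, Pcdhgb2 and Pcdhga3. Pcdhgc4 and Pcdhga4 were the other higher members in HET (0.79 and 0.48 on the log2 scale). The members lower in HET MGE were Pcdha9 (−1.18), Pcdha11 (−0.98), Pcdha12 (−0.86), Pcdhga3 (−0.77) and Pcdhga2 (−0.67). A fit of these 6 libraries alone called 1 member in place of 11, and Pcdhga3 was the member that passed under every alternative. The HET MGE libraries were all male, while HET 2 of cortex was female. HET 3 of cortex also stood apart from HET 1 and 2 in cell type markers. The parts of sex and cell makeup were not tested.

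The makeup of each cluster was summarised as the effective number of isoforms, the number of equally abundant isoforms that would give the same Shannon diversity of counts. For alpha it was 9.88 ± 0.38 (SD, n = 3) in WT MGE, 10.01 ± 0.766 in WT cortex and 7.09 ± 0.489 in WT hippocampus, and the hippocampal libraries lay below all WT embryonic ones. For beta it was 16.9 ± 0.155, 16.7 ± 0.252 and 18.9 ± 0.259 of 22, higher in hippocampus without overlap. For gamma it was 12.2 ± 1.05, 11.8 ± 0.538 and 12.6 ± 0.2 of 22, with overlapping ranges. C-type isoforms made up 39.8, 40.1 and 43.5% of gamma counts in WT cortex and 50.2, 47.9 and 49.0% in WT hippocampus. These are values over libraries with no test.

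HET and WT were compared in each tissue to ask whether the loss of 1 Chd2 copy changed clustered protocadherin levels. No member passed the threshold in any tissue in edgeR's quasi-likelihood test with Benjamini-Hochberg adjustment over all genes: 0 of 54 in MGE, 0 of 54 in cortex and 0 of 56 in hippocampus. Over all genes the called shares were 0.0479% in MGE, 0% in cortex and 1.07% in hippocampus. At an unadjusted p under 0.05 there were 7 members in MGE, 2 in cortex and 8 in hippocampus, where 4.51%, 7.89% and 15.6% of all genes stood at that level. The members' counts in cortex and hippocampus were no higher than those shares. In MGE the members' count was above that share, with 5 of the 7 in beta and 2 in alpha. Genotype and sex cannot be told apart in MGE. DESeq2 and limma-voom also called 0 members in each tissue. The members differed in direction by cluster and by tissue, which is given below as counts beside all genes.

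In MGE the alpha and beta members lay mostly below WT and the gamma members lay on both sides. The summed beta level was 43.7, 45.4 and 58.4 CPM in WT and 44.9, 34.3 and 33.4 in HET, a ratio of 0.764, with HET 1 inside the WT range and HET 2 and 3 below it. The summed alpha level was 18.7, 21 and 21.4 CPM in WT and 21, 13.3 and 18.9 in HET, a ratio of 0.87. Log2 fold changes were below 0 for 10 of 11 alpha, 20 of 21 beta and 14 of 22 gamma members, where 47.9% of all genes were below 0. The medians were −0.41, −0.37 and −0.06 beside 0.01 over all genes. HET 2 held the lowest alpha and gamma sums of the group, and without it 6 of 22 gamma members were below 0 in place of 14. Other cell type markers also moved in MGE, none past the threshold: astrocyte genes were below 0 in 5 of 6 cases (median −0.75, 4 without overlap), cortex identity genes in 6 of 8 (median −1.13) and meningeal genes in 7 of 8 (median −0.28). Over all genes tested, 5.47% were lower in HET without overlap. Of the 6 MGE libraries HET 2 had the highest sum of progenitor genes, 7139.8 CPM, and of the HET libraries the lowest sum of young neuron genes, 3883 CPM. The part of these markers was not tested.

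The lowest p-values in MGE belonged to neighbouring beta genes. Pcdhb12 held 0.958, 0.754 and 0.841 CPM in WT and 0.381, 0.504 and 0.189 in HET, with a log2 fold change of −1.25 (adjusted p = 0.98, SE 0.42). Pcdhb14 (chr18:37447656-37456350) held 1.29, 1.15 and 1.39 CPM in WT and 0.871, 0.504 and 0.512 in HET, with a log2 fold change of −1.02 (adjusted p = 0.98, SE 0.35). Pcdhb11 (chr18:37421418-37425836) held 1.06, 1.11 and 2.13 CPM in WT and 0.707, 0.28 and 0.782 in HET, with a log2 fold change of −1.27 (adjusted p = 0.98, SE 0.45). In all 3 genes every HET library was below every WT library, yet none passed after adjustment. Such a gap was seen in 4 of 21 beta members and in 5.47% of all genes tested. Pcdhb13, which lies between them and was added after its value was seen, was at −0.74 (SE 0.47). On the other side, Pcdhac2 held 7.27, 5.12 and 7.50 CPM in HET, against 4.49, 5.87 and 5.56 in WT, with overlap and a log2 fold change of 0.32 (adjusted p = 0.98, SE 0.20). The C-type share of alpha counts was 33.2, 35.4 and 34.2% in WT MGE and 41.0, 54.2 and 47.4% in HET MGE, apart but untested. Pcdhgb7 (0.24) and Pcdhga8 (0.19) had the lowest p among the other members above 0. Since all WT libraries here were female and all HET libraries male, these values are differences of both.

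In cortex the alpha and beta sums were lower in HET 1 and HET 2 and not in HET 3. The summed beta level was 48.8, 53.4 and 59.3 CPM in WT and 30.9, 32.5 and 56.2 in HET, and the summed alpha level was 21.7, 23.6 and 27.5 CPM in WT and 16.0, 16.4 and 22.8 in HET. HET 3 lay within the WT range for both, while HET 1 and 2 were below it. The gamma sum, at 186, 159.8 and 165 CPM in WT and 186, 159 and 176 in HET, overlapped. Log2 fold changes were below 0 for 11 of 11 alpha and 20 of 21 beta members but 7 of 22 gamma members, where 47.7% of all genes were below 0, and the medians were −0.42, −0.42 and 0.07 beside 0.01. Among A-type gamma isoforms 10 of 12 were above 0. The lowest p-values below 0 were those of Pcdhb14, Pcdhb8 and Pcdha5. Pcdhb14 held 2.62, 1.82 and 2.26 CPM in WT and 0.704, 0.745 and 1.48 in HET, without overlap, with a log2 fold change of −1.17 (adjusted p = 0.578, SE 0.37). Such a gap below WT was seen in 5 of 54 members and in 5.87% of all genes tested. Pcdhb8 was at −0.68 (SE 0.29) and Pcdha5 at −0.74 (SE 0.33), and above 0 the lowest p-values were those of Pcdhga2 (0.43), Pcdhgb5 (0.47) and Pcdhgb6 (0.27).

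Young neuron and progenitor markers in cortex followed the same split of libraries. The 12 young neuron genes summed to 4286, 4401 and 4924 CPM in WT and 3116, 3017 and 4746 in HET, and the 12 progenitor genes to 4744, 4989 and 4540.3 in WT and 5704, 5481 and 4614 in HET. HET 1 and 2 were thus lower in young neuron genes and higher in progenitor genes than every WT library, and HET 3 was within or near the WT range. In log2 fold change 11 of 12 young neuron genes were below 0 (median −0.34) and 11 of 12 progenitor genes above (median 0.25), and none of either list passed. The MGE identity sum was also low in HET 1 and 2, at 17.5, 15.8 and 58.6 CPM in HET and 53.1, 39.6 and 65.7 in WT (7 of 7 genes below 0, median −0.82). The red blood cell sum was high in HET 1 and 2, at 929, 1150.0 and 376 CPM in HET and 295, 379 and 448 in WT (4 of 5 genes above 0, median 1.12). Cortex identity, adult hippocampal neuron and microglia genes also summed lower in HET 1 and 2 than in every WT library. The sums were 2322, 2117 and 2812 CPM in HET and 2740, 3026 and 3213 in WT for cortex identity. For hippocampal neuron genes they were 609, 575 and 1240 against 1145, 1165 and 1308. Other protocadherins, promoter choice regulators and protocadherin partners summed higher in HET 1 and 2 than in every WT library. Some lists did not split the libraries in this way. Meningeal genes summed to 571, 808 and 730.0 CPM in HET and 638, 395 and 389 in WT (8 of 8 above 0, median 0.49). Choroid plexus genes gave 13.8, 257 and 443 CPM in HET and 1565, 6.00 and 1202 in WT (6 of 7 below 0, median −1.60). Astrocyte genes summed to 648, 625 and 635 CPM in HET and 621, 612 and 543 in WT (5 of 8 below 0). Without HET 3, an alternative planned for every library, 4 of 54 members were lower in HET cortex, while 13% of all genes tested were called lower. They were Pcdhb17 (−0.89, SE 0.21, adjusted p = 0.0102), Pcdhb14 (−1.60, SE 0.37, adjusted p = 0.0106), Pcdhb8 (−0.93) and Pcdhb19 (−0.82). That share of members lay below the background. The part of cell makeup in these differences was not tested.

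In hippocampus the cluster sums of HET and WT lay close together, relative to the differences between tissues. The alpha sum was 101, 96.5 and 99.9 CPM in WT and 100.3, 92.5 and 108 in HET. The beta sum was 132, 160.3 and 164 CPM in WT and 179, 167 and 167 in HET, and the gamma sum was 446, 455 and 448 in WT and 433, 396 and 439.8 in HET. Alpha ranges overlapped, all 3 HET libraries were below WT for gamma (a ratio of means of 0.94), and all 3 were above WT for beta (1.13), with no test. Log2 fold changes were below 0 for 5 of 13 alpha, 5 of 21 beta and 10 of 22 gamma members, where 48.6% of all genes were below 0, and the medians were 0.05, 0.20 and 0.03 beside 0.00. The alpha count was 8 of 13 without WT 2 or without HET 3, and the beta count 3 of 21 without WT 3 or without HET 2. Pcdhgc3 had the lowest p, at 87.5, 90.7 and 88.3 CPM in WT and 80.7, 75.3 and 76.4 in HET, without overlap, with a log2 fold change of −0.19 (adjusted p = 0.13, SE 0.06). Such a gap below WT was seen in 3 of 56 members and in 11.7% of all genes tested. Pcdhga11 was next below 0, at −0.20 (adjusted p = 0.183, SE 0.07), and Pcdhgc5 was at −0.13 (SE 0.06). Above 0, Pcdhb9 held 11.8, 14.4 and 14.7 CPM in WT and 15.9, 16.3 and 17.1 in HET, with a log2 fold change of 0.27 (adjusted p = 0.224, SE 0.10). Pcdhga7 (0.29) and Pcdhb7 (0.31) followed. All 8 oligodendrocyte genes were also above 0 (median 0.26) and 7 of 8 endothelial genes below 0 (median −0.40, 2 of them past the threshold), and their part was not tested.

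**Figure D4:**
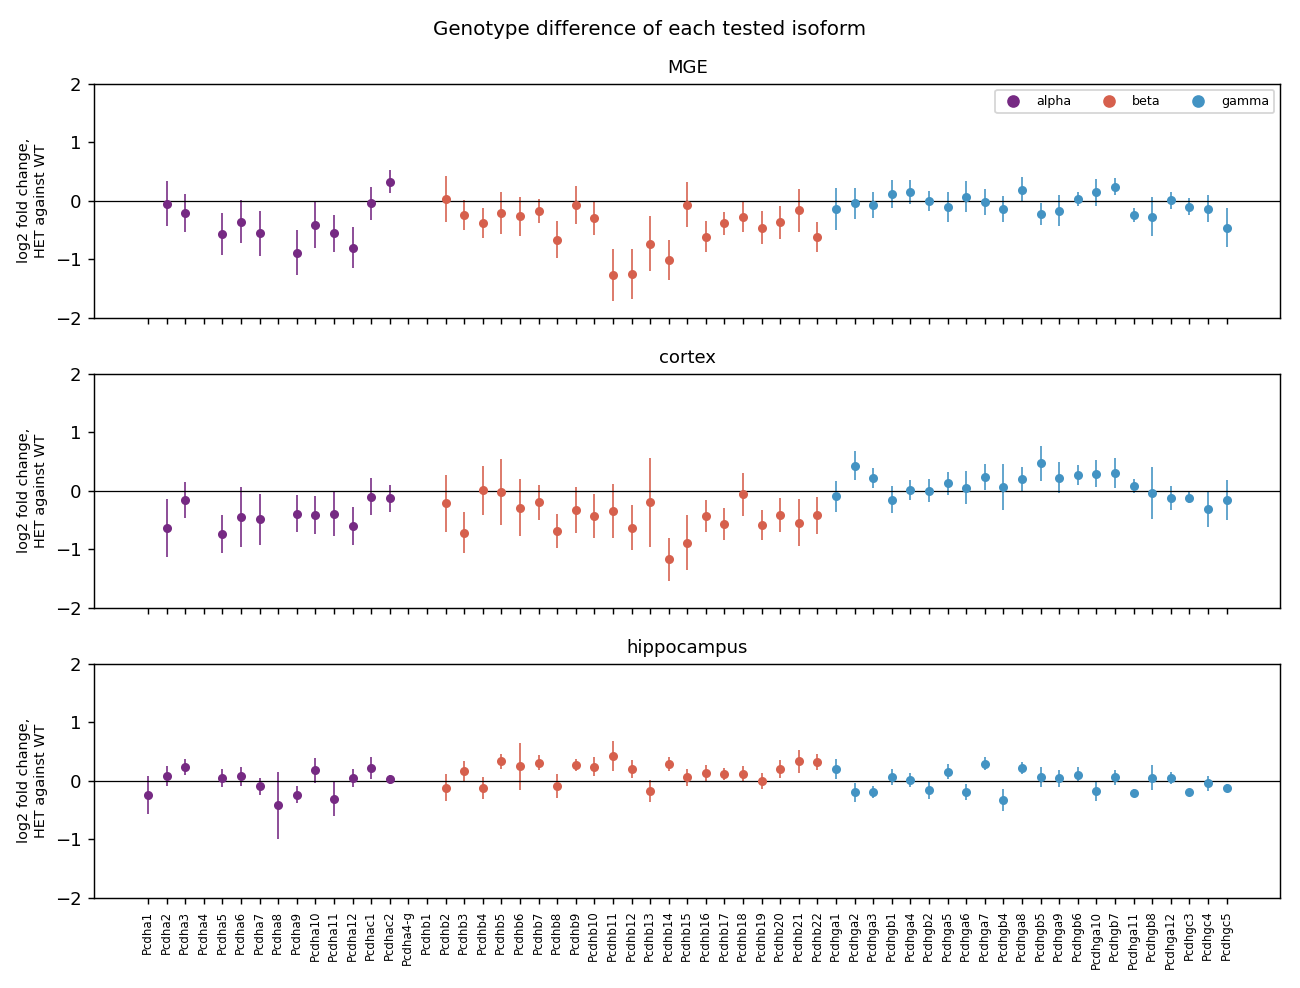
Log2 fold change of HET against WT for each isoform in order along the clusters, with a panel per tissue and bars of 1 standard error. Isoforms without a point were not tested. In MGE and cortex most alpha and beta points lie below 0 and gamma points lie on both sides, and in hippocampus all 3 clusters lie near 0, with no isoform past the threshold in any panel.

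The difference of the genotype effect between tissues was tested as an interaction in 1 fit of all libraries. No member passed between cortex and MGE (0% of all genes called), between hippocampus and MGE (0.0062%) or between hippocampus and cortex (0.0124%), and at an unadjusted p under 0.05 there were 1, 5 and 5 of 56 members, where 7.01%, 7.36% and 12.8% of all genes stood at that level. Between hippocampus and cortex the lowest p was that of Pcdhb14, with a difference in log2 fold change of 1.46 (adjusted p = 0.257, SE 0.36), and DESeq2 called it (adjusted p = 0.0161), with adjusted p-values from 0.00157 to 0.594 over all alternatives. Its HET and WT hippocampal levels were 10.1, 11.2 and 8.83 and 7.87, 8.80 and 8.12 CPM, with every HET library above every WT library by a narrow margin, where in MGE and cortex every HET library was below. In hippocampus 9.17% of all genes tested were higher in HET without overlap. Between hippocampus and MGE the lowest p was that of Pcdhb12, at 1.45 (adjusted p = 0.463, SE 0.38), and between cortex and MGE that of Pcdhga11, at 0.31 (adjusted p = 0.71, SE 0.14). All MGE WT libraries were female and all MGE HET libraries male. Genotype and sex therefore cannot be told apart in the interactions that use MGE, nor for Pcdhb14 in MGE. Without HET 3 of cortex, 7 of 56 members had a higher effect in hippocampus than in cortex, where 8.95% of all genes did. They were Pcdha6 and the beta genes Pcdhb3, Pcdhb7, Pcdhb14, Pcdhb15, Pcdhb17 and Pcdhb22. With all libraries, limma-voom called 0 members in each of the 3 interactions.

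Genes that act on or beside the clusters were read from 3 lists. Of 20 tested regulators of promoter choice and chromatin at the clusters, 17 were lower in WT hippocampus than in WT cortex (median −1.42), where 40.2% of all genes were lower and 38.6% higher. In the same libraries 12 of 12 progenitor genes were lower, and the part of this was not tested. The lowest p-values were those of the cohesin subunits Smc1a (−1.93), Stag2 (−1.83), Smc3 (−1.67) and Rad21 (−1.71). Ctcf, included for its known binding at promoters and enhancers of the clusters, was also lower (−0.99). In WT MGE 14 of the 20 were higher than in cortex, among them Rad21 (0.64) and the DNA methyltransferase Dnmt1 (0.93), and none was lower, where 21.4% of all genes were higher, and 7 of 12 progenitor genes were higher as well. Of 16 partners of protocadherins, 11 were higher in hippocampus and 3 lower (median 0.96). They included the kinase Ptk2b, which alpha and gamma isoforms bind (10.23), and the WAVE complex members Cyfip2 (3.62) and Wasf1 (3.14). Marcks, a target of protein kinase C in the gamma pathway, was lower (−2.90), and Axin1 and Adam10 were lower as well. Of 11 protocadherins outside the clusters, 9 were higher in hippocampus, such as Pcdh20 (5.02) and Pcdh1 (4.92), and Pcdh18 (−3.99) and Pcdh12 were lower (median 1.67). Between HET and WT, none of these genes passed in any tissue with edgeR. At an unadjusted p under 0.05, in MGE, cortex and hippocampus, there were 0, 3 and 4 of the 11 other protocadherins, 0, 2 and 7 of the 20 regulators and 0, 1 and 2 of the 16 partners, where the shares over all genes were 4.51%, 7.89% and 15.6%. The lowest adjusted p was that of Pcdh17 in hippocampus (−0.25, adjusted p = 0.054).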

How the data were processed

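The deposited file was 1 table of raw counts per gene symbol for 18 poly(A) RNA libraries, 3 in each of 6 groups, with no normalization by the authors. Per the submitters' processing notes, FastQC, Trimmomatic, TopHat2 2.1.1, SAMtools and DESeq2 were used, with the genome build mm10. The sources used here do not name the counting program, the annotation or the strand setting. Groups were taken from the sample titles, and no replicate was a copy of another (chi-square per degree of freedom at least 6.00 between replicates).

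Counts were tested over all genes with edgeR 4.0.16 in R 4.3.3 (filterByExpr with minimum count 10 and minimum total 15, TMM scaling, robust quasi-likelihood F test, Benjamini-Hochberg adjusted p under 0.05). Genotypes were compared within each tissue in a fit of its 6 libraries. Tissues and interactions were tested in 1 fit of all 18 libraries. SE is the standard error, the size of the log2 fold change over the square root of F. CPM are TMM-scaled, and lengths come from GENCODE M21. The code was tested on simulated data. Depths of 26841671 to 38802765 counts set the precision, which is low for members under 1 CPM.

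The members are all symbols beginning with Pcdha, Pcdhb or Pcdhg. Named members are the 5 C-type isoforms, the 2 highest and 2 lowest per cluster by level per length, and in each contrast up to 6 per direction past the threshold with the largest change, or the 3 with the lowest p in each direction where fewer than 5 passed. From lists of other protocadherins, promoter choice regulators, partners and cell type markers (young neurons, progenitors, MGE and cortex identity, adult hippocampal neurons, astrocytes, oligodendrocyte lineage, choroid plexus, meninges, endothelium, microglia, red blood cells), up to 4 with the lowest p were taken. The result of 1 listed regulator is not reported here. The members and lists were chosen with earlier results of these data known. The alternatives tried were upper-quartile and RLE scaling, no filter, DESeq2 1.42.0, limma-voom (limma 3.58.1), the replicate number as a block, another set of libraries in the fit, leaving out each library, library totals without scaling, and other gene lengths.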

Additional observations from a re-analysis of the deposited data

How the results depend on the processing

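Counts of members past the threshold stayed within 1.5 times under every alternative, with the exceptions given here. Leaving out each library in turn gave 0 to 4 members called between HET and WT in cortex (4 without HET 3), 4 to 11 between MGE and cortex in WT (4 without cortex WT 3), 7 to 12 in HET and 0 to 7 for the interaction of hippocampus and cortex. Between MGE and cortex in HET, limma-voom called 7 and a fit of those 2 groups 1 in place of 11, and DESeq2 called 1 for the interaction of hippocampus and cortex in place of 0. Hippocampus against cortex gave 48 to 50 calls in WT and 47 to 53 in HET without each library. Gamma members below 0 in MGE numbered 6 to 16, alpha members below 0 in hippocampus 4 to 8 and beta members there 3 to 6. Alpha in hippocampus reached 8 without WT 2 or HET 3, and beta 3 without WT 3 or HET 2. The cause was not tested.

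C-type isoforms with differences near 0 changed sign when 1 library was left out. Between HET and WT in MGE, Pcdhgc3 ran from −0.204 to 0.0285, Pcdhgc4 from −0.392 to 0.0282 and Pcdhac1 from −0.258 to 0.0796 on the log2 scale. In cortex Pcdhac2 ran from −0.318 to 0.0102 and Pcdhgc5 from −0.349 to 0.0274, and in hippocampus Pcdhgc4 ran from −0.144 to 0.0554 and Pcdhac2 from −0.0308 to 0.0828. Between MGE and cortex in WT, Pcdhac2 ran from −0.236 to 0.0886.

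The shared replicate numbers do not pair the samples by the labels, and the correlations of deviations of same-numbered samples were not all over 0.1 in any of 9 pairs of groups. With the replicate block, 0 members were called between genotypes in each tissue and in each interaction, 8 and 9 between MGE and cortex in WT and HET, 51 and 53 between hippocampus and cortex, and 47 and 49 between hippocampus and MGE. For MGE and cortex in WT every sample correlated best with its own number, a hint from the data and not the design.

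The order by length depended on the annotation for the leading beta gene. With RefSeq lengths, an alternative added after the data were seen, Pcdhb17 led in WT at 2.11 CPM per kilobase in MGE, 2.27 in cortex and 4.94 in hippocampus. Members under about 1 CPM rest on few counts, which limits what could be detected for Pcdha1, Pcdha4, Pcdha8 and Pcdhb1.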
